A study of Homo sapiens with 6 samples.

Results

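ATP-binding cassette (ABC) transporters were compared between control SW480 cells and SW480 cells overexpressing HNF4A. The genes were taken as the rows of the deposited FPKM table whose name is ABC, a subfamily letter A to G and a number. This rule found 47 of the 60694 rows and 46 names, because ABCF2 stood on 2 rows. ABCC13, which both RefSeq and GENCODE annotate as a pseudogene, was left out and was listed at 0 FPKM in all 6 libraries. The remaining 45 protein-coding genes comprised 12 of subfamily A, 9 of B, 11 of C, 4 of D, 1 of E, 3 of F and 5 of G. The genes TAP1, TAP2 and CFTR belong to the same family under other symbols and are described separately.

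SW480 is an established human colorectal cancer cell line, here grown in RPMI1640 with serum and profiled as bulk RNA by paired-end sequencing. The control group held 3 libraries with the genotype label control and titles that read lenti, and the other group held 3 libraries labelled as overexpressing HNF4a with titles that read lenti-HNF4a. HNF4A is a transcription factor of the nuclear receptor family, active in hepatocytes and intestinal epithelium. All 6 libraries came from the same line. The promoter of the introduced gene, or whether either population was a clone, is not given in the sources used here. For bulk RNA, fewer cells that express a gene and less RNA per cell cannot be told apart.

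ABC proteins couple the binding and hydrolysis of ATP to the movement of substrates across a membrane. Subfamilies B, C and G hold the pumps that export drugs and conjugated metabolites from gut and liver cells, and subfamilies A and G hold exporters of cholesterol and phospholipids. The D proteins import fatty acids into peroxisomes or handle cobalamin in lysosomes, whereas the E and F proteins lack membrane-spanning segments and work with ribosomes and translation factors.

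Of the 45 genes, 24 reached the level set for testing, 1 FPKM or more in 3 or more of the 6 libraries, where FPKM is a fragment count scaled by transcript length and library total. Of these 24, ABCB1, the drug efflux pump P-glycoprotein, and ABCC6, an efflux pump of liver and kidney that limits soft-tissue calcification, rose in HNF4A overexpression, and 0 fell (limma on log2(FPKM + 1) with Benjamini-Hochberg adjustment over all tested genes). Over all 14106 tested genes, 3.40 percent passed as higher and 1.39 percent as lower. At an unadjusted p under 0.05, 7 of the 24 were higher and 0 lower, against 18.0 percent of all tested genes in either direction. The 3 libraries of one group lay entirely above or below those of the other in 9 of the 24 genes, and in 23.8 percent of all tested genes. Both the 7 and the 9 genes include ABCA3, which reached the testing level only through the HNF4A overexpression libraries. The median log2 change of the 24 genes was 0.07, against 0.01 over all tested genes, and 18 of the 24 log2 changes lay within 0.2 of zero, as did 79.6 percent of all tested genes. This fit took no account of replicate numbers. With a replicate block, a term for the replicate number, ABCB1, ABCC6, ABCB9 and ABCC3 passed as higher and 0 ABC genes as lower. Over all tested genes, the block gave 638 higher and 399 lower genes.

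HNF4A itself averaged 7.62 ± 1.12 FPKM in the controls and 905 ± 216 FPKM in HNF4A overexpression (SD, n = 3 each; log2 change 6.70, limma adjusted p = 9.93e-07), so each library matched its label. The summed FPKM of the libraries ranged from 615594 to 652879, and read totals are unknown because FPKM keeps no counts. Of 10 colorectal epithelial markers, 6 were tested, and only VIL1 passed, as higher, as did 3.40 percent of all tested genes. In control and HNF4A overexpression, EPCAM was at 176 ± 2.75 and 180 ± 2.13 FPKM. VIL1 was at 12.1 ± 2.46 and 32.3 ± 4.36 FPKM, and CDX2 at 18.6 ± 2.73 and 25.0 ± 3.56 FPKM. The tested KRT8, KRT18 and KRT19 had lower means in HNF4A overexpression. The 4 markers under the testing level, CDX1, CDH17, KRT20 and LGALS4, mark differentiated intestinal epithelium and were all under 0.5 FPKM in every library. The 7 hepatocyte markers summed to between 76.5 and 82.9 FPKM in the controls and between 104 and 115 FPKM in HNF4A overexpression, nearly all of it SERPINA1, with ALB, APOB, TTR and CYP3A4 each under 0.3 FPKM. SERPINA1, the only hepatocyte marker tested, was at 79.5 ± 3.31 and 109 ± 5.60 FPKM and passed as higher (limma adjusted p = 0.00352). The 5 fibroblast markers summed to between 2.18 and 2.76 FPKM in the controls and between 3.43 and 3.52 FPKM in HNF4A overexpression, most of it COL1A1. The 4 leukocyte markers summed to between 0.707 and 0.855 FPKM in the controls and between 1.10 and 1.47 FPKM in HNF4A overexpression, most of it CD14, and the 3 endothelial markers to between 0.184 and 0.239 and between 0.258 and 0.411 FPKM, with CDH5 at 0 in all 6 libraries. The part of these markers in the ABC values was not tested.

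Promoter windows of 3 ABC genes are shown because ABCB1 and ABCC6 passed the test and ABCG2 was the gene below the testing level whose groups did not overlap. Of all genes below that level with a value above 0, the groups did not overlap in 10.5 percent. Each window is the RefSeq sequence (GRCh38.p14) from 250 bases before to 50 bases after an annotated start, read 5′ to 3′ on the strand of the gene, with each CCAAT box (CCAAT on either strand) in capitals. RefSeq gives ABCB1 a downstream start inside chr7:87600835-87601134 and an upstream start inside chr7:87713246-87713545, and the windows of ABCC6 and ABCG2 lie at chr16:16223445-16223744 and chr4:88158860-88159159, all on the minus strand. Further start sites are annotated for ABCC6 and ABCG2 and are not printed.
ABCB1 downstream: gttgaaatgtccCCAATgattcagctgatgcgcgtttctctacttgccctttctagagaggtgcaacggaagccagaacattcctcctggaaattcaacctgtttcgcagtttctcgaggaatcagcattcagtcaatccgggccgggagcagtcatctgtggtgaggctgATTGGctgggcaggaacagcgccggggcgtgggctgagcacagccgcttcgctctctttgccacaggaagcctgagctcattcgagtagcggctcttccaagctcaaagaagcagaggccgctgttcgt
ABCB1 upstream: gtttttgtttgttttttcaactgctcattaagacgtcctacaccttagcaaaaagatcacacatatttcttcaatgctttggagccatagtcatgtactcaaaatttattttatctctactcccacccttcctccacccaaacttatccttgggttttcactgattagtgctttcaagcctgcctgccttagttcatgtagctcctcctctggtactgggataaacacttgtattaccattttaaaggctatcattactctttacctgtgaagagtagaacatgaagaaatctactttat
ABCC6: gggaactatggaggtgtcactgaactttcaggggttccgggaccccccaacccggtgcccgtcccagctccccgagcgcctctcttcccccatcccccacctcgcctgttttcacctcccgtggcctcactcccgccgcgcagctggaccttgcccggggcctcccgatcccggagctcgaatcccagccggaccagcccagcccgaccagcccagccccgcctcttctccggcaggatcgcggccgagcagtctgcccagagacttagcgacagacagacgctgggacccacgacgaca
ABCG2: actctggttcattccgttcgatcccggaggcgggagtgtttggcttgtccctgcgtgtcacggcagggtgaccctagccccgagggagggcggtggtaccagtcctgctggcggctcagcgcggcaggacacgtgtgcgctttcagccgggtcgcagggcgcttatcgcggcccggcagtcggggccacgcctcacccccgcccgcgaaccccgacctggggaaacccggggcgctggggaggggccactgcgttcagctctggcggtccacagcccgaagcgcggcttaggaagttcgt

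The windows differ in base composition. G and C made up 55.3 percent of the downstream ABCB1 window and 37.7 percent of the upstream one, with 16 and 1 CG dinucleotides. The ABCC6 window held 69.0 percent G and C with 25 CG dinucleotides, and the ABCG2 window held 33 CG dinucleotides. The downstream ABCB1 window held CCAAT in forward orientation at position -238 and in reverse orientation at -79, counted from the start, while 34.6 percent of all 35116 RefSeq windows and 12 of the 53 ABC windows held CCAAT on either strand.

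Promoter windows were found for 35 of the 45 ABC genes, 53 windows in all, and were searched on both strands for 4 further motifs. The HNF4-type motif CAAAGTCCA was in 0 of the 53 ABC windows and in 0.384 percent of all windows. AGGTCANAG, the first 9 letters of a direct repeat of AGGTCA with a spacer of 1 base, was in 0 ABC windows and 1.59 percent of all. The HNF1-type motif GTTAATNAT was in 0 ABC windows and 0.792 percent of all. The relaxed HNF4-type motif CAAAGNNCA, which also takes in CAAAGTCCA, was in 4 ABC windows, 7.55 percent, against 5.28 percent of all windows. Its matches were CAAAGTACA at -91 from the ABCD3 start, CAAAGGCCA at -46 from the ABCC10 start, a reverse match at -87 from an ABCD2 start, and reverse matches at ABCC2 that read TGCCCTTTG at -167 and TGTACTTTG at -44. The windows of ABCB1, ABCC6 and ABCG2 held none of these 4 motifs. Such a match or its lack describes only the letters in these windows.

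Subfamily B held the gene with the largest log2 change among the 24 tested. ABCB1, on chromosome 7 from 87503633 to 87713323 (GENCODE 29, GRCh38, minus strand), was measured at 1.49, 2.32 and 2.22 FPKM in control replicates 1 to 3 and at 7.67, 9.03 and 8.92 FPKM in HNF4A overexpression replicates 1 to 3. Every overexpression library exceeded every control library, and the means were 2.01 ± 0.45 and 8.54 ± 0.758 FPKM (SD, n = 3 each), a 4.25-fold difference. The log2 change was 1.67 (standard error 0.13, limma adjusted p = 6.12e-04), and ABCB1 still passed whichever library was left out (adjusted p between 9.96e-04 and 0.00488). Ranked by mean FPKM, ABCB1 stood at position 21 of the 45 genes in control and at 16 in HNF4A overexpression. RUNDC3B, a gene on the other strand that overlaps ABCB1, was at 0.209 ± 0.109 and 0.313 ± 0.128 FPKM.

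ABCB4, the hepatic phosphatidylcholine exporter, is the closest relative of ABCB1 and lies 23198 bases from it on the same strand. Its FPKM values were 1.43, 1.71 and 1.82 in control and 2.14, 2.16 and 2.82 in HNF4A overexpression. The groups did not overlap, but the log2 change of 0.34, with a 95% interval of 0.07 to 0.61, did not pass (limma adjusted p = 0.165), and it did not pass whichever library was left out (0.221 to 0.354). Further along the same arm, CROT, a peroxisomal carnitine acyltransferase gene, was at 8.07 ± 1.53 and 10.0 ± 0.642 FPKM (adjusted p = 0.256), and SLC25A40, on the other side of ABCB1, at 22.1 ± 1.65 and 22.9 ± 0.242 FPKM (adjusted p = 0.769).

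ABCB9, a peptide transporter of the lysosomal membrane, was at 6.0, 4.17 and 4.09 FPKM in the controls and 8.36, 6.63 and 7.08 FPKM in HNF4A overexpression. All overexpression libraries were above all controls, with control replicate 1 close to the lowest of them. The log2 change was 0.55 with a 95% interval of 0.23 to 0.87 (limma adjusted p = 0.0655), and without control replicate 1 it was 0.70 and passed (adjusted p = 0.0198). Replicate 1 was the highest library in both groups. With the replicate block and all libraries kept, ABCB9 passed (limma adjusted p = 0.0157). ABCB9 overlaps ARL6IP4 and OGFOD2 on the other strand, which averaged 72.3 and 10.4 FPKM in the controls and 68.4 and 10.4 FPKM in HNF4A overexpression.

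The other tested members of subfamily B did not pass. ABCB8 was the most abundant gene of the subfamily, at 21.2, 19.6 and 18.8 FPKM in the controls and 21.5, 19.8 and 18.0 FPKM in HNF4A overexpression. Its groups overlapped fully, with a log2 change of -0.01 and a 95% interval of -0.19 to 0.17. ABCB6, linked to porphyrin transport, averaged 14.6 and 14.8 FPKM, and ABCB10, linked to haem synthesis, 6.16 and 6.75 FPKM. The bile salt export pump gene ABCB11 was at 0 FPKM in all libraries but HNF4A overexpression replicate 1, at 0.00976 FPKM, and ABCB5 was at 0 in all 6.

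**Figure D1:**
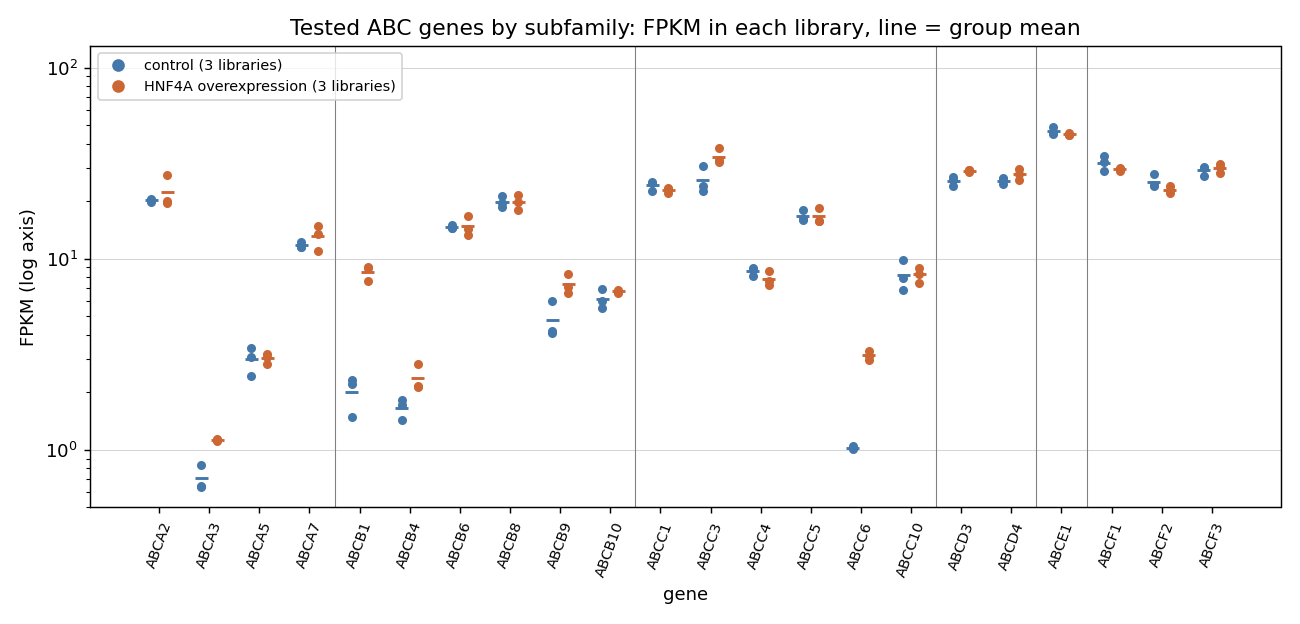
FPKM of 22 of the 24 tested ABC genes on a log axis, ordered by subfamily A to F with grey lines between subfamilies, with 1 point for each library (blue control, orange HNF4A overexpression) and a dash for each group mean. ABCB1 and ABCC6 show groups far apart, while ABCE1 at the top, at 46.4 and 44.8 FPKM, and the F genes show groups close together.

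Subfamily C held the other gene past the threshold. ABCC6, on chromosome 16 from 16148928 to 16223522 on the minus strand, was at 1.01, 1.02 and 1.05 FPKM in the controls and 2.95, 3.10 and 3.30 FPKM in HNF4A overexpression. The groups were far apart relative to their spread, with means of 1.03 ± 0.0228 and 3.12 ± 0.178 FPKM (SD, n = 3 each), a 3.04-fold difference. The log2 change was 1.02 (standard error 0.09, limma adjusted p = 0.00133), and it too passed whichever library was left out (adjusted p between 0.00612 and 0.00808).

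ABCC6 has near-identical pseudogene copies, so its FPKM may include shared fragments. ABCC6P1 was listed at 0.942, 0.881 and 0.886 FPKM in the controls and 2.02, 1.32 and 2.53 FPKM in HNF4A overexpression, and it reached the testing level only through the latter. ABCC6P2 was listed at 0.226, 0.288 and 0.440 FPKM in the controls and 0.783, 1.003 and 1.25 FPKM in HNF4A overexpression and was under the testing level. In both pseudogenes every overexpression library was above every control, and how the deposited values divide fragments between the 3 copies was not tested. The groups did not overlap in 23.8 percent of all tested genes. Among genes under the testing level with a value above 0, that share was 10.5 percent. Neighbouring genes did not pass: ABCC1, which ends 5854 bases from ABCC6, had a log2 change of -0.08, and NOMO3, on the other side, one of -0.07 (adjusted p = 0.551 and 0.733).

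ABCC3, a basolateral exporter of glucuronides and bile acids, was the most abundant member of subfamily C. It was at 22.8, 30.7 and 23.9 FPKM in the controls and 32.7, 37.9 and 32.3 FPKM in HNF4A overexpression, so that control replicate 2 came close to the overexpression libraries without reaching them. The log2 change of 0.40 had a 95% interval of 0.15 to 0.66 and did not pass (limma adjusted p = 0.0921), but without control replicate 2 it was 0.53 and passed (adjusted p = 0.0222). HNF4A overexpression replicate 2 was likewise the highest of its group. With the replicate block and all libraries kept, ABCC3 passed (limma adjusted p = 0.0140). The mean of ABCC3 was 25.8 ± 4.31 FPKM in the controls and 34.3 ± 3.14 FPKM in HNF4A overexpression, a difference of 8.48 FPKM, which was larger than that of any other ABC gene on this scale.

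The other conjugate and nucleotide pumps of subfamily C overlapped between groups. ABCC1, an exporter of glutathione conjugates, was at 24.8, 25.2 and 22.8 FPKM in the controls and 23.4, 23.1 and 22.05 FPKM in HNF4A overexpression, a log2 change of -0.08 with a 95% interval of -0.22 to 0.06. ABCC4, an exporter of cyclic nucleotides and prostaglandins, was at 8.97, 8.17 and 8.70 FPKM in the controls and 8.63, 7.33 and 7.63 FPKM in HNF4A overexpression, a log2 change of -0.12 with an interval of -0.30 to 0.06. ABCC5, a nucleotide exporter, was at 16.2, 16.02 and 17.9 FPKM in the controls and 15.8, 15.8 and 18.4 FPKM in HNF4A overexpression (log2 change -0.01, interval -0.19 to 0.18). ABCC10 averaged 8.22 and 8.27 FPKM, with DLK2 on its other strand at 3.19 and 2.23 FPKM.

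ABCC2, the apical conjugate pump of hepatocytes and enterocytes, was below the testing level at 0.296, 0.0983 and 0.0320 FPKM in the controls and 0.0871, 0.0424 and 0.0613 FPKM in HNF4A overexpression, with overlapping groups. The sulfonylurea receptor genes ABCC8 and ABCC9 averaged 0.404 and 0.700 FPKM in the controls and 0.540 and 0.688 FPKM in HNF4A overexpression. Of their potassium channel partners, KCNJ8 was at 2.11 ± 0.578 and 2.21 ± 0.328 FPKM (adjusted p = 0.894) and KCNJ11 was under the testing level. ABCC11 and ABCC12 were also under it, with means of 0.0639 and 0.497 FPKM in the controls and 0.0224 and 0.301 FPKM in HNF4A overexpression.

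**Figure D2:**
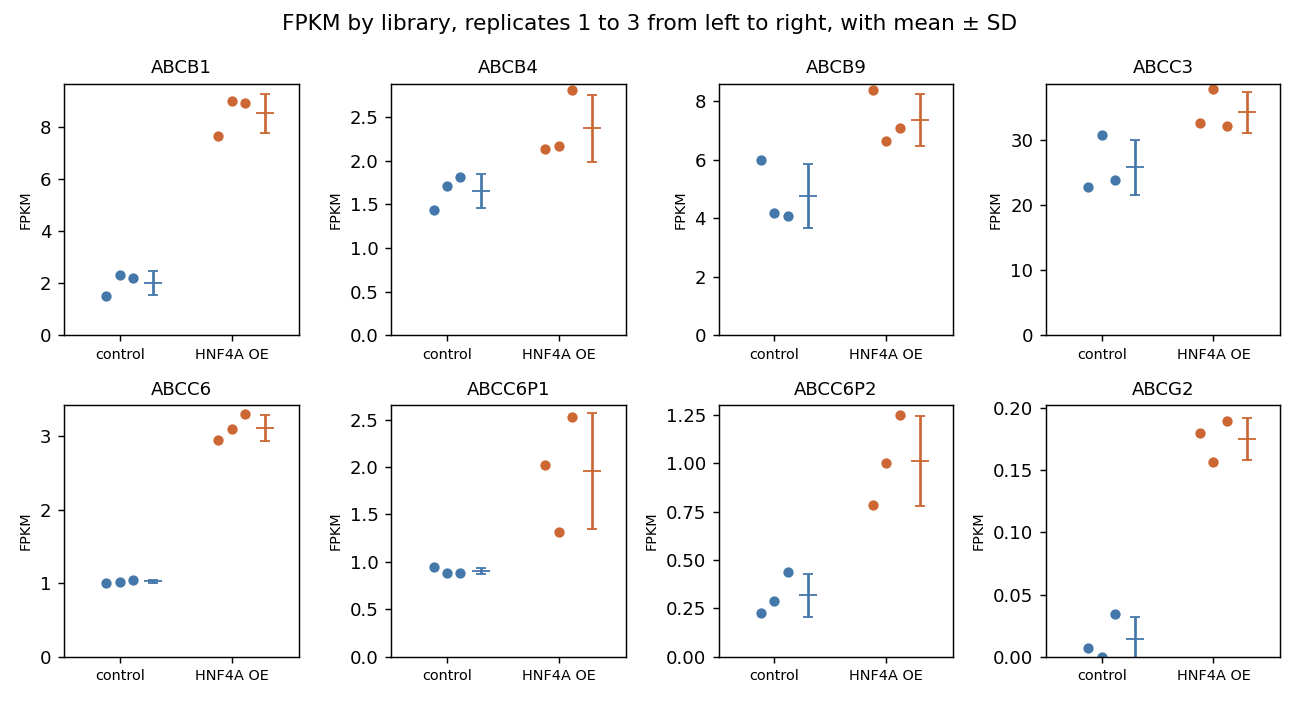
FPKM on linear axes from 0 for ABCB1, ABCB4, ABCB9, ABCC3, ABCC6, the pseudogenes ABCC6P1 and ABCC6P2, and ABCG2, with points for replicates 1 to 3 of control (blue) and HNF4A overexpression (orange, HNF4A OE) and the mean ± SD beside them. In all 8 panels the overexpression points lie above the control points, and ABCG2 stays under 0.2 FPKM. The panels are a selection of genes whose groups do not overlap. The groups did not overlap in 23.8 percent of all tested genes. They did not in 10.5 percent of genes under the testing level with a value above 0.

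In subfamily A, whose members move lipids, 4 of 12 genes were tested and none passed. ABCA2, a sterol and myelin lipid transporter of endolysosomes, was the most abundant, at 20.5, 20.2 and 19.9 FPKM in the controls and 20.1, 27.3 and 19.6 FPKM in HNF4A overexpression. Only HNF4A overexpression replicate 2 stood above the controls, and the log2 change was 0.12 (limma adjusted p = 0.652), or -0.02 without that library (adjusted p = 0.910). ABCA7, a phospholipid transporter, averaged 11.7 and 13.1 FPKM and ABCA5 2.97 and 3.02 FPKM. ABCA3, the surfactant lipid transporter of lung, was at 0.833, 0.649 and 0.642 FPKM in the controls and 1.13, 1.14 and 1.11 FPKM in HNF4A overexpression. It was tested only because the overexpression libraries reached 1 FPKM, and its log2 change of 0.32 did not pass (adjusted p = 0.165).

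The cholesterol exporter genes were near the bottom of the range. ABCA1, which loads cholesterol and phospholipid onto apolipoprotein A-I, was at 0.278, 0.0509 and 0.0700 FPKM in the controls and 0.00529, 0.0184 and 0.0532 FPKM in HNF4A overexpression. ABCG1, which exports sterol to larger lipoprotein particles, was at 0.430, 0.0817 and 0.224 FPKM in the controls and 0.159, 0.128 and 0.193 FPKM in HNF4A overexpression. The groups overlapped in both genes, and control replicate 1 held the highest value of each. ABCG5 and ABCG8 together form the sterol exporter of enterocytes and hepatocytes. ABCG5 was at 0.00955, 0 and 0.00773 FPKM in the controls and 0, 0.0106 and 0 FPKM in HNF4A overexpression. ABCG8 was at 0.0362, 0.0192 and 0.0116 FPKM in the controls and 0.0434, 0.0402 and 0.0300 FPKM in HNF4A overexpression. The groups overlapped in both.

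ABCG2, the breast cancer resistance protein, was the 1 gene whose groups did not overlap among the 18 ABC genes under the testing level with a value above 0. Of all 17900 such genes, the groups did not overlap in 10.5 percent. It was listed at 0.00735, 0 and 0.0348 FPKM in the controls and 0.180, 0.156 and 0.190 FPKM in HNF4A overexpression, so the means differed by 0.161 FPKM. All overexpression values were above all controls, but the highest was under 0.2 FPKM. With the testing level lowered to 0.1 FPKM, ABCG2 was admitted only through the overexpression libraries, where it is high, and did not pass (log2 change 0.21, limma adjusted p = 0.133, with 2.09 percent of 20902 genes higher), nor did it with a pseudocount of 0.1 FPKM at that level (log2 change 1.28, adjusted p = 0.0873, with 2.15 percent higher). With no testing level beyond a value above 0 in any library, it passed (log2 change 0.21, limma adjusted p = 0.0306). There, 0.628 percent of 32006 genes passed as higher. The log2 change was the same as at the 0.1 FPKM level with the main pseudocount. Its standard error was smaller, 0.0230 against 0.0613, and the adjustment ran over 32006 against 20902 genes. The call of ABCG2 thus depended on the testing level.

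**Figure D3:**
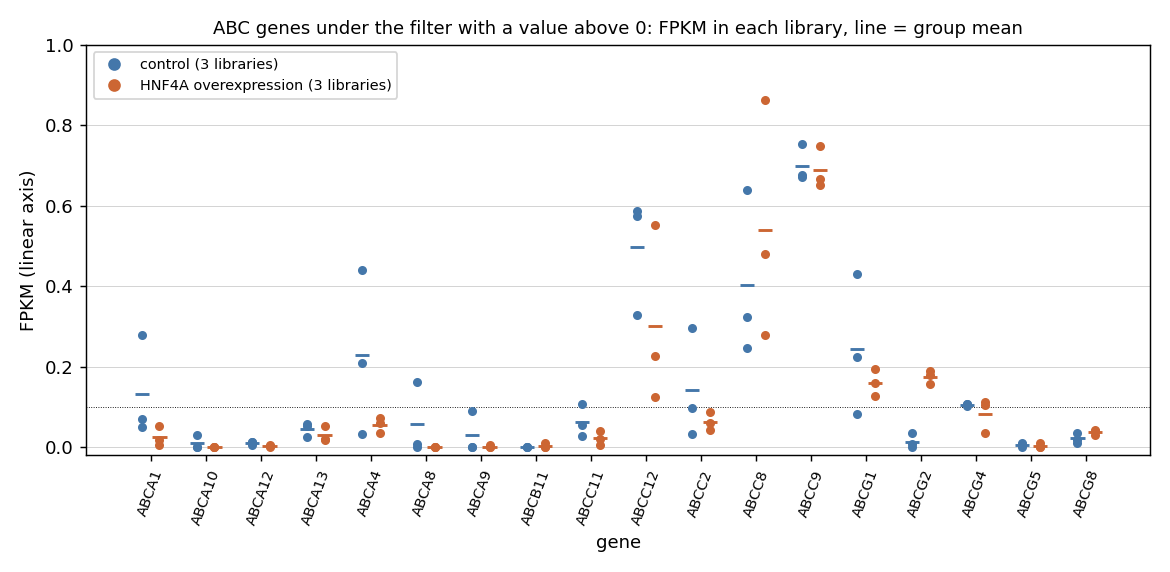
FPKM on a linear axis for the 18 ABC genes under the testing level that had a value above 0, with 1 point for each library (blue control, orange HNF4A overexpression), a dash for each group mean and a dotted line at 0.1 FPKM. ABCG2 is the gene in which all 3 orange points lie above all blue points, and ABCC8 reaches the highest value, 0.863 FPKM.

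Of the 21 genes below the testing level, ABCA6, ABCB5 and ABCD2 were listed at 0 FPKM in all 6 libraries. Of the other 18, 14 had a lower and 4 a higher mean in HNF4A overexpression, all but ABCG2 with overlapping groups. Of all 17900 genes under the testing level with a value above 0, 43.8 percent had a lower mean in HNF4A overexpression, and the groups did not overlap in 10.5 percent. All 7 detected low genes of subfamily A were among those with a lower mean: ABCA1, ABCA4, ABCA8, ABCA9, ABCA10, ABCA12 and ABCA13. Some of these lower means rested on 1 control library: ABCA10 had a value above 0 only in control replicate 1, at 0.0313 FPKM, and control replicate 2 was the only control above 0 for ABCA9, at 0.0898 FPKM. ABCA1 was at 0.278 FPKM in control replicate 1 and at 0.0509 and 0.0700 FPKM in the other controls. In ABCA4, the retinal transporter, the control libraries ranged from 0.0337 to 0.441 FPKM, which takes in all overexpression values. ABCG4 averaged 0.106 and 0.0838 FPKM.

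The peroxisomal subfamily D did not pass in any of its 3 tested members. ABCD3, which imports branched-chain fatty acids and bile acid intermediates, was at 24.1, 26.0 and 26.8 FPKM in the controls and 29.1, 28.4 and 29.1 FPKM in HNF4A overexpression. The groups did not overlap, and the log2 change of 0.17 had a 95% interval of 0.04 to 0.30 (limma adjusted p = 0.155). ABCD4, needed for cobalamin release from lysosomes, averaged 25.7 and 27.6 FPKM (adjusted p = 0.480).

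None of the E and F genes, which act in translation, passed, and ABCE1, ABCF1 and ABCF3 had the 3 highest mean FPKM values of the 45 genes in control. ABCE1, which splits ribosomes for recycling, was at 45.7, 44.8 and 48.8 FPKM in the controls and 45.6, 44.5 and 44.4 FPKM in HNF4A overexpression, with a log2 change of -0.05 and a 95% interval of -0.17 to 0.07. ABCF1, a partner of the initiation factor eIF2, was at 32.0, 34.6 and 28.9 FPKM in the controls and 29.4, 28.8 and 30.0 FPKM in HNF4A overexpression (log2 change -0.11, interval -0.27 to 0.05). ABCF3 averaged 28.99 and 29.9 FPKM. The more abundant ABCF2 row averaged 25.3 and 23.0 FPKM, without overlap of the groups (adjusted p = 0.389), and the other ABCF2 row averaged 15.4 FPKM in both groups.

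**Figure D4:**
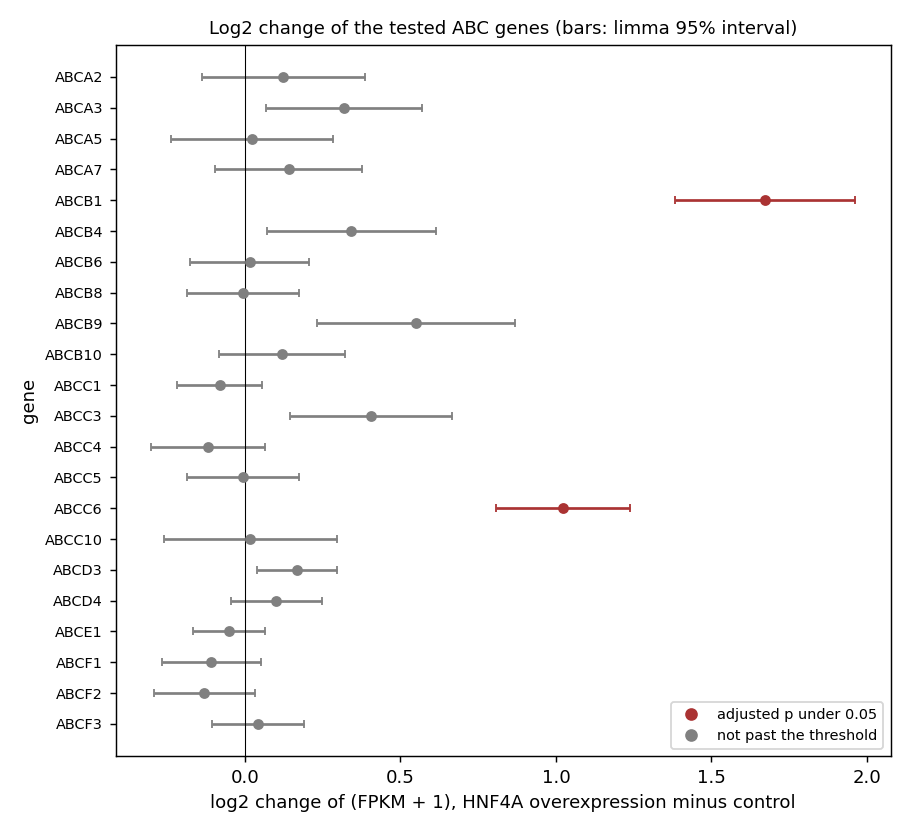
Log2 change of FPKM + 1, HNF4A overexpression minus control, for 22 of the 24 tested ABC genes in subfamily order, with limma 95% intervals, in red where the adjusted p was under 0.05 and grey otherwise. ABCB1 at 1.67 and ABCC6 at 1.02 stand to the right, ABCB9 is next at 0.55, and the lowest value is that of ABCF2 at -0.13.

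By subfamily, the median log2 change of the tested genes was 0.13 in A, 0.12 in B, 0.01 in C, 0.10 in D and -0.11 in F. Summed over all 45 genes, FPKM came to 383, 395 and 386 in control and 412, 417 and 407 in HNF4A overexpression. The summed FPKM of subfamily B averaged 64.7 in control and 76.7 in HNF4A overexpression, a difference of 11.97 FPKM, of which ABCB1 made up 6.53 FPKM and ABCB9 2.61 FPKM. For subfamily C the sums averaged 86.4 and 94.7 FPKM, a difference of 8.24 FPKM. The 5 genes of subfamily G together came to no more than 0.591 FPKM in any library.

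The order of the members by mean FPKM in control began with ABCE1 at 46.4, ABCF1 at 31.8, ABCF3 at 28.99, ABCC3 at 25.8 and ABCD4 at 25.7 FPKM. In HNF4A overexpression ABCE1 at 44.8 FPKM was followed by ABCC3 at 34.3, ABCF3 at 29.9, ABCF1 at 29.4 and ABCD3 at 28.9 FPKM. ABCF3 and ABCF1 differed by less than their SDs there, as did ABCC3 and ABCD4 in control. Of the 45 genes, 15 averaged at least 10 FPKM over the 6 libraries, and 10 stayed under 0.1 FPKM in every library.

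Genes that work with these transporters were read from the same fit, in which 3.40 percent of all tested genes rose and 1.39 percent fell. TAP1 and TAP2, the ABC proteins that transport peptides for antigen presentation, were at 17.5 ± 1.27 and 17.5 ± 0.446 FPKM and at 24.7 ± 0.85 and 26.3 ± 1.16 FPKM, and neither passed (adjusted p = 0.984 and 0.492). CFTR, the chloride channel of the family, was at 0 FPKM in all libraries but HNF4A overexpression replicate 1, at 0.00963 FPKM. Of 9 tested peptide loading partners of TAP, 0 passed in either direction (median log2 change 0.08).

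Of 11 tested peroxisomal partners of the D genes, 2 rose and 0 fell (median log2 change 0.05), against 3.40 and 1.39 percent of all tested genes. ACAA1, the peroxisomal thiolase, was at 31.1, 30.6 and 29.8 FPKM in the controls and 55.1, 48.2 and 49.3 FPKM in HNF4A overexpression (limma adjusted p = 9.56e-04). SLC27A2, a very long chain acyl-CoA synthetase, was at 13.1, 13.5 and 12.5 FPKM in the controls and 22.5, 18.2 and 16.9 FPKM in HNF4A overexpression (adjusted p = 0.0262). The groups did not overlap in either gene, nor did they in 23.8 percent of all tested genes. The call of ACAA1 held in all 6 fits without 1 library, and that of SLC27A2 only without HNF4A overexpression replicate 1 (0.0342) or 3 (0.0226), with adjusted p-values of 0.0625 to 0.0847 without the others.

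Of 10 tested genes of glutathione supply and conjugation, which make substrates for the C pumps, 2 rose and 0 fell (median log2 change 0.07), with the same 3.40 and 1.39 percent over all tested genes. MGST1, a microsomal glutathione transferase, was at 5.97, 6.03 and 6.26 FPKM in the controls and 18.4, 11.6 and 11.9 FPKM in HNF4A overexpression (limma adjusted p = 0.00796), and passed in all 6 fits without 1 library. GSTP1, the main glutathione transferase of many tumours, had an adjusted p of 0.0477, and among those fits it passed only without HNF4A overexpression replicate 2 (0.0337), with values of 0.0673 to 0.130 without the others.

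Of 11 tested sterol efflux partners 1 rose and 0 fell (median log2 change -0.03), where 3.40 percent of all tested genes rose. It was SCARB1, the high-density lipoprotein receptor, at 42.7 ± 1.78 and 51.2 ± 2.45 FPKM (limma adjusted p = 0.0412), whose call was lost without any 1 library (0.0694 to 0.131). Of 13 tested mitochondrial iron-sulphur and haem genes 1 fell and 0 rose (median log2 change -0.02), where 1.39 percent of all tested genes fell. It was SLC25A37, the mitochondrial iron importer, at 24.9 ± 0.58 and 21.2 ± 0.566 FPKM (adjusted p = 0.0489), whose call was also lost without any 1 library (0.0962 to 0.152).

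Of 11 tested xenobiotic regulators of efflux pumps 0 passed in either direction (median log2 change 0.02). For this list and those that follow, 3.40 percent of all tested genes rose and 1.39 percent fell. NR1I2, the pregnane X receptor that controls ABCB1 in liver and gut, did not exceed 0.0118 FPKM in any library, and NR1I3, the constitutive androstane receptor, was at 1.39, 0.787 and 0.911 FPKM in the controls and 2.09, 1.23 and 1.503 FPKM in HNF4A overexpression (limma adjusted p = 0.295). VDR, the vitamin D receptor, averaged 26.7 and 27.4 FPKM. Of 4 tested genes of bile acid and organic anion handling 0 passed (median log2 change -0.04), among them the hormone gene FGF19 at 160.4 ± 15.7 and 125 ± 13.8 FPKM (adjusted p = 0.0701), and the bile acid receptor gene NR1H4 was at 0 FPKM in all libraries but control replicate 2, at 0.0245 FPKM. Of 10 tested ribosome recycling and eIF2 partners of the E and F genes 0 passed (median log2 change -0.04).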

How the data were processed

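The data are FPKM values (fragment counts per transcript length and library total), which the authors deposited as 1 table of 60694 rows with 6 library columns and their own group means. Tools named in the submitters' processing notes are TopHat and TopHat2, Bowtie and Bowtie2, Cufflinks and FastQC, with the build hg38 and without versions or roles. Which annotation, strandedness and settings were used is not given in the sources used here. Per the labels, each group had 3 biological replicates, so p-values measure the spread between cultures of 1 line. Columns were matched to samples by name, and groups come from the genotype label.

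FPKM was analysed as log2(FPKM + 1), which understates changes of low genes, in R 4.3.3 with limma 3.58.1 (lmFit, eBayes with trend, group as the only term). Where rows shared a name, the one with the higher mean was used. Genes with at least 1 FPKM in at least 3 of 6 libraries were tested, 14106 in all, with a Benjamini-Hochberg adjusted p under 0.05 as the threshold. The limma fit was tested on simulated data, drawn as independent normal values with the fitted variances, so replicate structure was not checked. Depth is unknown, so no counting interval was computed. Coordinates are from GENCODE 29 (GRCh38), and pseudogene status from RefSeq and GENCODE.

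The members and lists were chosen with earlier results of these data known. Values in every library were given for ABC genes past the threshold, the most abundant of each subfamily and a preset group of transporters, and other named genes were chosen after their values were seen. The CCAAT motif, neighbouring genes and the combination of a 0.1 FPKM level with a 0.1 FPKM pseudocount were added after the data were seen. A planned comparison of protein motifs was not made. The values of 2 tested ABC genes are not reported here, although the counts, medians and sums include them. Alternatives were other pseudocounts, testing levels, scalings and row choices, a replicate block and leaving out each library.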

Additional observations from a re-analysis of the deposited data

How the results depend on the processing

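Among the values that the 24 tested ABC genes took under the alternatives, 332 kept their direction or stayed without a call, and 4 gained a call: ABCB9 without control replicate 1, ABCC3 without control replicate 2, and both with the replicate block. ABCB1 and ABCC6 passed under every alternative run, ABCB1 with log2 changes of 1.54 to 2.05 and ABCC6 of 0.99 to 1.51. The replicate numbers were not taken to pair the samples. The correlations of same-numbered deviations were 0.139, 0.0914 and 0.15, of which only 0.0914 was under the minimum set, 0.1. Each library correlated best with its own number, and all correlations between unlike numbers were negative. As deviations were taken from the group means, negative values between unlike numbers partly follow from positive ones between like numbers. The calls of ABCB9 and ABCC3 depended on this choice. With the replicate block 4 ABC genes passed as higher, the 2 further ones being ABCB9 (adjusted p = 0.0157) and ABCC3 (0.0140), and 0 as lower. Over all tested genes the block gave 638 higher and 399 lower against 480 and 196. Leaving out 1 library gave 274 to 313 higher and 87 to 161 lower genes, with 2 to 3 ABC genes higher and 0 lower. Without a testing level beyond a value above 0 in any library, 201 genes passed as higher and 49 as lower. ABCG2 was the further ABC gene there, 3 in all. The cause of these differences was not tested. The log2 change of HNF4A ranged from 6.52 to 6.86. FPKM gives no depth, which limits what can be said of the 21 ABC genes under 1 FPKM.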

Other observations

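SNRPGP4, a pseudogene annotated on the other strand within ABCA5, was listed at 0 FPKM in all 3 control libraries and at 1.61, 1.47 and 2.52 FPKM in HNF4A overexpression, while ABCA5 averaged 2.97 and 3.02 FPKM. SNRPGP4 reached the testing level only through the HNF4A overexpression libraries, so no test of it is given. This gene was singled out after its values were seen.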
